A study of Sus scrofa with 9 samples.

Results

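The extracellular matrix of the testis was examined through the genes of its collagens, laminins, glycoproteins and small proteoglycans, the proteases that cut them with their inhibitors, and the integrins that bind cells to them. Members were chosen by gene symbol in the array's own annotation, which gave 74 genes with 187 probes among the 60889 non-control probes of the array. For 49 of the 74 genes at least 1 probe stood in the authors' table of log2 values, and the probe with the highest mean there represented the gene. All 49 passed the filter on dim probes and were tested. The other 25 genes have no value below beyond their detection, and COL1A1, biglycan (BGN) and 10 of the proteases are among them.

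RNA of testicular biopsies was labeled with cyanine 3 and hybridized on 9 arrays, 3 for each group, over 3 slides that each held 1 array of every group. The control group came from fertile boars (2n = 38, XY). The t(1;14) group came from 1 Landrace and Duroc crossbred, oligo-astheno-teratospermic boar with the reciprocal translocation (2n = 38, XY). The oligospermic group had a normal karyotype (2n = 38, XY), and the labels do not say how many boars it holds, or the ages of any animals. The 3 t(1;14) arrays are separate samples and extractions of the same boar, and which boar each control array holds is not stated in the sources used here. The p-values therefore measure the spread between these arrays and do not cover the spread between boars. Whatever else set this boar apart from the other animals cannot be told apart from the translocation. Between 37087 and 40632 probes per array were well above background, and 52 to 275 were saturated. The median SD within a group over the 49 members was 0.37 on the log2 scale for control, 0.13 for t(1;14) and 0.22 for oligospermic, against 0.24, 0.13 and 0.18 over all tested probes. The number of arrays limits the precision.

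In the testis a basement membrane of laminins and collagens separates the seminiferous epithelium from the peritubular cells, and interstitial collagens surround the Leydig cells and vessels. Integrins are pairs of an alpha and a beta chain that hold cells to this matrix and carry signals through adaptors such as talin and vinculin. Matrix metalloproteinases (MMP) and ADAMTS proteases cut matrix proteins, and TIMP proteins inhibit them.

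A probe is 60 bases long, and the letters of the probes matter here because probes of 1 gene could give different values, among them those of TNC, ITGB4, LAMB1 and ITGA2. The sequences are those of the array files, in the orientation given there. For the chosen TNC, ITGB4 and ADAMTS20 probes, whose place in the transcript was not clear, a stretch of 30 bases is given, and the others are whole. Capitals mark AATAAA, the usual polyadenylation signal, in the chosen ITGB4 probe, and the in-frame stop codon that ends the chosen ITGA2 probe. The ITGAV probe is the one with the smallest rise of its 7.
TNC, chosen: attcagcaaaaatctcccggtgacagcatc
TNC, other: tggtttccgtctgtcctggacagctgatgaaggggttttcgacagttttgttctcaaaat
ITGB4, chosen: gctttgttctgcacttAATAAAaagattga
ITGB4, other: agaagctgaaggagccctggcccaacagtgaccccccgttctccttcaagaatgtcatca
LAMB1, chosen: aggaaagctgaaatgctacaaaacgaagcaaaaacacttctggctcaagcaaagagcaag
LAMB1, other: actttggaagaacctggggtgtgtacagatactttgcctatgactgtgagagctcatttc
ITGA2, chosen: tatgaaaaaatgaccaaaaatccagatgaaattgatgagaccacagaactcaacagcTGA
ITGAV: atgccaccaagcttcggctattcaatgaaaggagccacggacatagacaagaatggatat
ADAMTS20, chosen: ctgcttactttctcaaggctttcaaagtaa

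AATAAA was found, in the orientation given, in 11.4% of all 60889 probes, in 6.42% of the 187 probes of the members and in 7 of the 49 chosen probes. On the opposite strand it was found in 4.35% of all probes, in 5.88% of the 187 and in 3 of the 49. A match describes the letters of the probe and is not a measured site of polyadenylation.

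The first comparison asked how the testis of the t(1;14) boar differed from control testis. The largest rises past the test were those of integrin chains: ITGB4, ITGAV, ITGB3 and ITGB1 rose by 0.96 to 2.21 on the log2 scale. The falls were spread over 2 integrins (ITGA2 and ITGAL), 3 proteases (ADAMTS20, ADAMTS8 and MMP19), a laminin (LAMB1), a thrombospondin (THBS3) and a collagen (COL21A1). The fibrillar collagens, decorin, lumican, fibronectin and the TIMP inhibitors did not pass the test at their chosen probes. Of the 49 members, 13 passed an adjusted p of 0.01, which is 26.5% against 38.5% of all 41105 tested probes. They were 5 higher and 8 lower, where 20.0% and 18.5% of all probes passed in these directions. The fold threshold of the methods, 2 on the log2 scale, was passed as well by 1 higher and 2 lower members, 6.12% against 5.82% of all probes (1.41% higher and 4.41% lower). Among these members ITGA2 was well above background on no t(1;14) array and was kept by the filter through control alone, and without it 12 members passed the adjusted p and 2 both thresholds. The test was limma's moderated test with Benjamini-Hochberg adjustment over all tested probes. The median log2 fold change of the members was -0.05, against 0.13 over all probes, with 23 members positive and 26 negative. Control and t(1;14) values did not overlap in 26 of the 49 members, 53.1% against 61.6% of all probes (35.4% higher and 26.2% lower). Some members described below were named after their values were seen. These were ITGB3, ITGAL, ADAMTS8, COL15A1, COL27A1, COL5A1, COL5A2, COL6A3, COL7A1, COL14A1, LAMA4, COL4A6 and the integrins that did not pass.

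**Figure D1:**
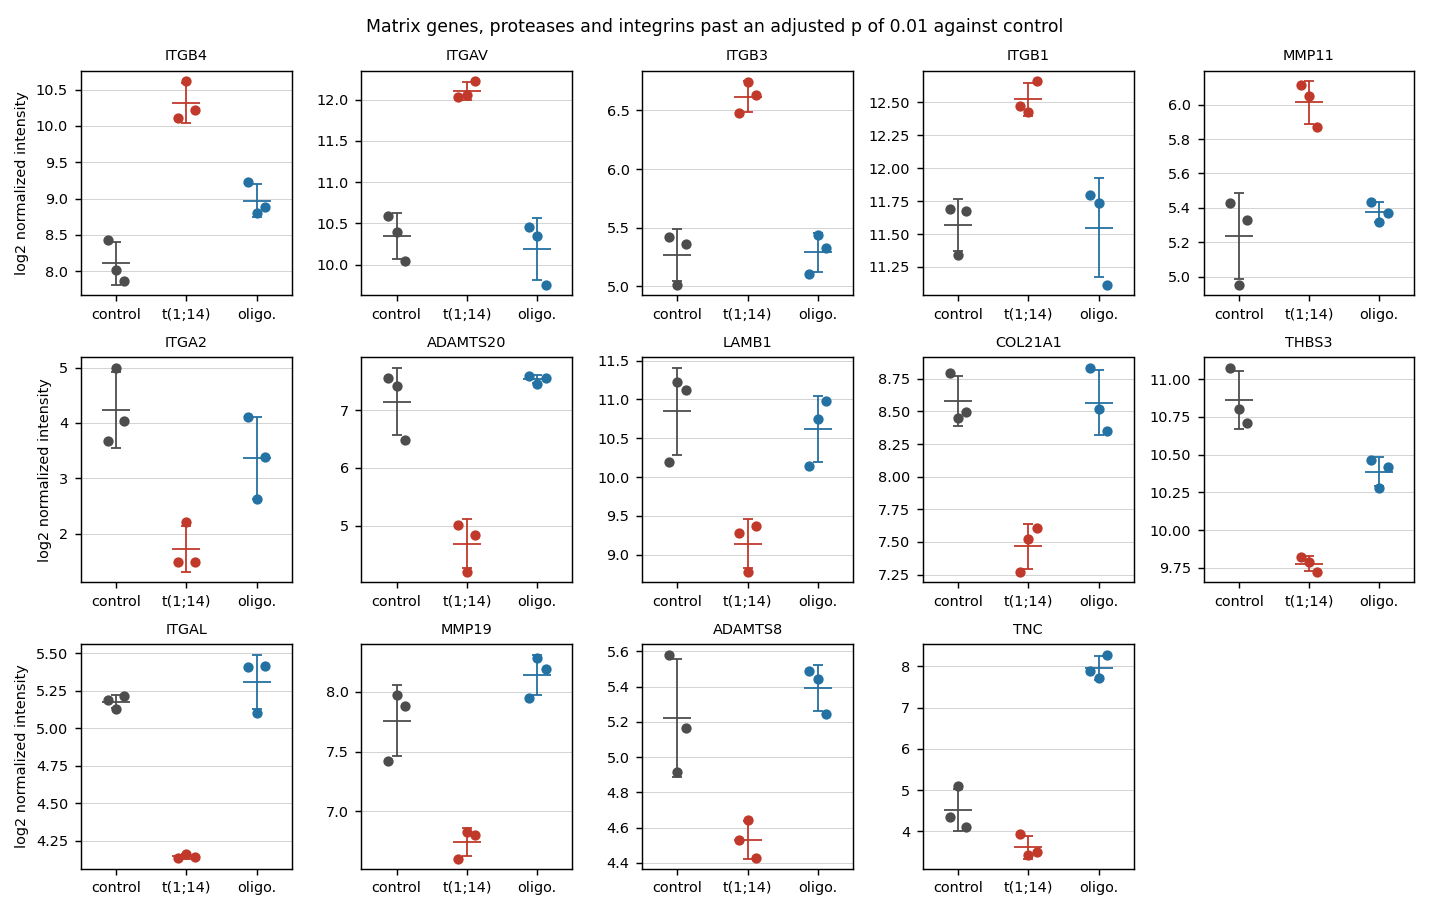
Log2 normalized intensity (y axis, a scale for each gene) on the 3 control, 3 t(1;14) and 3 oligospermic arrays for the 13 members past the adjusted p in t(1;14) against control, and for TNC, past it in oligospermic against control. Points are arrays, and the line with its bar is the mean and SD of the group; in the 13 genes no t(1;14) array lies within the range of the controls.

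Among the beta chains, 3 of 7 rose and none fell. ITGB4, the beta chain that pairs with the alpha 6 chain and anchors epithelial cells to laminin, measured 8.43, 8.02 and 7.86 on the control arrays and 10.10, 10.62 and 10.22 on the t(1;14) arrays. The oligospermic arrays lay between them, at 9.23, 8.79 and 8.89. All t(1;14) arrays were thus above all others, and the fold change was 2.21 (SE 0.20, adjusted p = 5.1e-05 in limma), with 2.19, 2.20 and 2.24 on the single slides. The other ITGB4 probe gave -0.49 (adjusted p = 0.22 in limma), so the rise rests on the probe that holds AATAAA, and with the mean of both probes the change was 0.86.

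ITGB3, which forms the vitronectin receptor with ITGAV, measured 5.42, 5.01 and 5.36 in control and 6.48, 6.74 and 6.63 in t(1;14), a rise of 1.35 (SE 0.15, adjusted p = 1.4e-04 in limma). A second ITGB3 probe rose by 1.91, and the third was saturated on all 9 arrays and carries no difference. ITGB1, the partner of most alpha chains, measured 11.69, 11.34 and 11.67 in control and 12.48, 12.43 and 12.66 in t(1;14), with no overlap. Its rise was 0.96 (SE 0.20, adjusted p = 0.0038 in limma), and all 6 ITGB1 probes rose, by 0.96 to 1.19. The ITGB1 call was lost without control replicate 2 (adjusted p = 0.0136) and without each t(1;14) array in turn (0.0102 to 0.0172), with changes of 0.84 to 1.00. ITGB2, ITGB5, ITGB7 and ITGB8 had changes of -0.49 to 0.29 and did not pass the test, although ITGB8, the lowest, passed with slide as a block (adjusted p = 0.00955).

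Among the 8 alpha chains, 1 rose and 2 fell. ITGAV, the alpha chain of the vitronectin receptors, measured 10.59, 10.40 and 10.04 in control and 12.03, 12.06 and 12.23 in t(1;14). Every t(1;14) array was above every control array, by 1.46, 1.83 and 1.98 on the 3 slides, and the rise was 1.76 (SE 0.21, adjusted p = 2.2e-04 in limma). All 7 ITGAV probes passed the adjusted p with rises of 1.05 to 1.76, so this change did not depend on the choice of probe. ITGA2, a collagen receptor chain, measured 3.66, 5.0 and 4.03 in control and 1.48, 2.21 and 1.49 in t(1;14), where no array was well above background. The measured means differed by -2.50 (adjusted p = 0.0018 in limma), and against the lowest signal well above background ITGA2 was at least 1.54-fold lower in t(1;14). Its other tested probe, above background on 2 t(1;14) arrays and on no control array, was at least 1.29-fold higher in t(1;14) (0.68 between the measured means, adjusted p = 0.0078 in limma). Each of these probes was thus kept by the filter through 1 of the groups compared and has only a bound in the other. The chosen ITGA2 probe was well above background on 2 control arrays, so it left the test without control replicate 2 or control replicate 3. ITGAL, the alpha chain of a leukocyte integrin, measured 5.19, 5.13 and 5.22 in control and 4.13, 4.16 and 4.14 in t(1;14), a fall by 1.03 on the log2 scale (adjusted p = 1.3e-04 in limma). ITGA1, ITGA2B, ITGA5, ITGA9 and ITGAE had changes of -0.24 to 0.71 and did not pass the test.

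**Figure D2:**
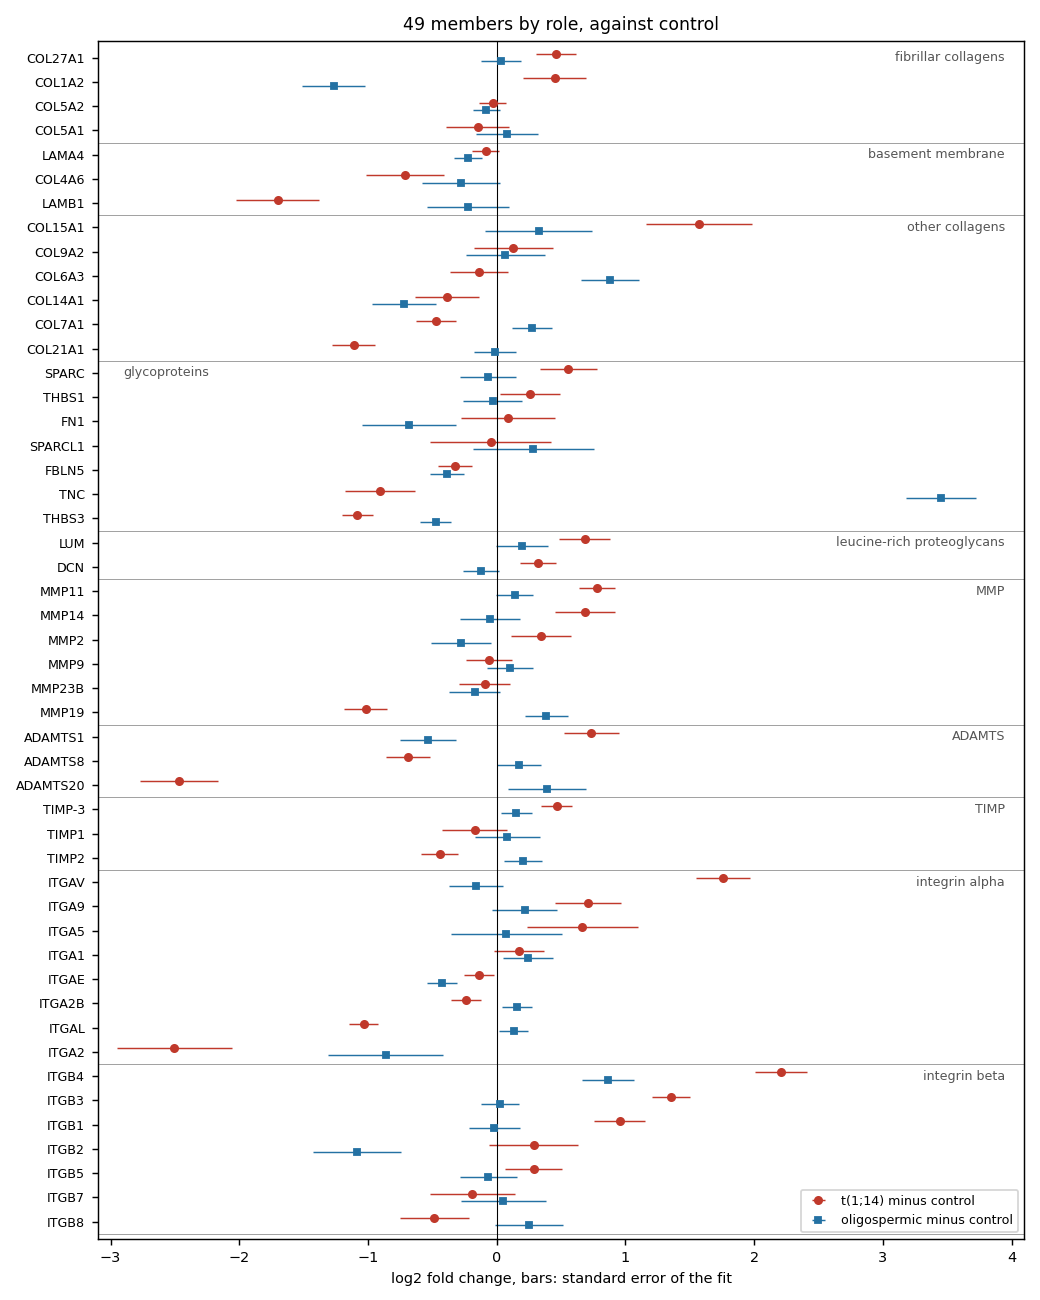
Log2 fold change (x axis) of the 49 members, ordered by role and by the change in t(1;14), with circles for t(1;14) minus control, squares for oligospermic minus control and bars for the standard error of the fit. ITGB4, ITGAV, COL15A1 and ITGB3 stand out on the right and ITGA2, ADAMTS20 and LAMB1 on the left for t(1;14), while in the oligospermic group TNC, at 3.45, lies apart from the rest, whose changes run from -1.27 to 0.88.

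Among the proteases, ADAMTS20, an ADAMTS family member with many thrombospondin repeats, had the largest fall that was measured above background in both groups. It read 7.56, 7.42 and 6.48 in control and 5.02, 4.20 and 4.84 in t(1;14), and was well above background on 2 of the 3 t(1;14) arrays. The change was -2.47 (SE 0.30, adjusted p = 2.6e-04 in limma), and it was -3.36, -2.58 and -1.46 on the single slides. With normexp background correction it was -1.16, short of the fold threshold but still past the adjusted p. Only 1 ADAMTS20 probe is on the array. ADAMTS8 fell by 0.69 on the log2 scale (adjusted p = 0.0093 in limma), a call that was lost in 14 of 19 alternatives. It was lost without any 1 of the arrays other than control replicate 2, with adjusted p = 0.0132 to 0.0362. ADAMTS1, which cuts versican and aggrecan, went from 4.01, 4.34 and 4.81 to 5.23, 4.90 and 5.25 without overlap, but its change of 0.73 had an adjusted p of 0.019 in limma. Without control replicate 3 it was 0.94, with adjusted p = 0.00453.

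Of the 6 matrix metalloproteinases tested, MMP11 rose and MMP19 fell. MMP11 (stromelysin 3) measured 5.43, 4.95 and 5.33 in control and 6.11, 6.05 and 5.87 in t(1;14), a rise of 0.78 (adjusted p = 0.0021 in limma). Its 4 tested probes gave changes of -0.44 to 1.31, the call was lost with their mean (0.43), and without t(1;14) replicate 1 its adjusted p was 0.0104. MMP19 measured 7.42, 7.98 and 7.88 in control and 6.61, 6.82 and 6.80 in t(1;14), a fall by 1.02 on the log2 scale (adjusted p = 0.0012 in limma), with 1 probe. The gelatinases MMP2 and MMP9, which cut denatured collagen, had changes of 0.35 (adjusted p = 0.24) and -0.06 (adjusted p = 0.79 in limma).

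None of the 3 TIMP inhibitors passed the test. TIMP-3, which is held in the matrix, had a change of 0.47 (adjusted p = 0.011 in limma), TIMP2 of -0.44 (adjusted p = 0.030) and TIMP1 of -0.17 (adjusted p = 0.59). TIMP2 passed without control replicate 3, at -0.58 (adjusted p = 0.0073), and with normexp background correction, and TIMP-3 passed with scaling to the percentile of each array (0.55, adjusted p = 0.00655) and with the stricter filter.

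LAMB1, the beta 1 chain of laminin and part of basement membranes, measured 10.20, 11.22 and 11.12 in control and 9.28, 8.78 and 9.37 in t(1;14). The groups did not overlap, and the fall was 1.70 on the log2 scale (-1.70, SE 0.32, adjusted p = 0.0025 in limma). The other LAMB1 probe measured 4.08, 4.89 and 4.14 in control and 4.30, 5.22 and 4.63 in t(1;14), with overlap, and gave 0.35 (adjusted p = 0.59). The call was lost with the mean of both probes (-0.68), and without t(1;14) replicate 2 it stood at adjusted p = 0.0101. Neither of the other members of basement membranes with a value passed the test. LAMA4 had a change of -0.08, and COL4A6, well above background on no t(1;14) array, was at least 1.39-fold lower there (adjusted p = 0.076).

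**Figure D3:**
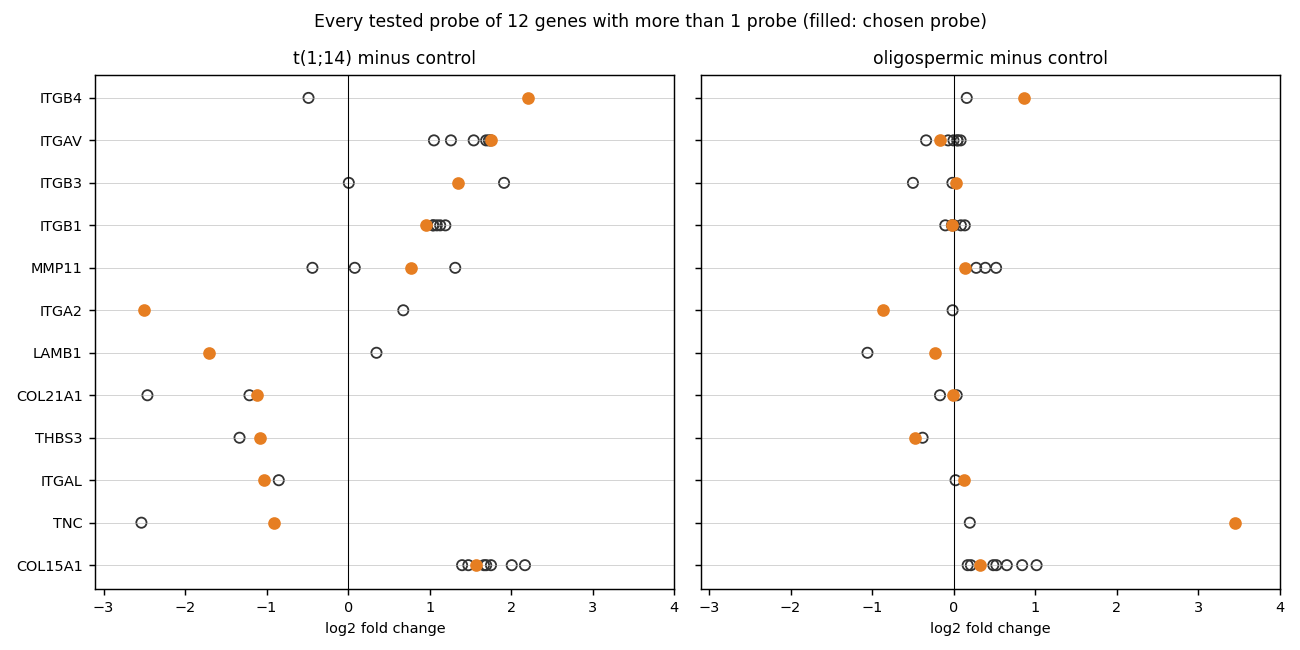
Log2 fold change (x axis) of every tested probe of 12 genes with more than 1 probe, for t(1;14) minus control (left) and oligospermic minus control (right), with the chosen probe filled. In the left panel the 7 ITGAV probes and the 6 ITGB1 probes lie above 0, and the probes of ITGB4, ITGA2 and LAMB1 lie on both sides of 0. In the right panel 1 of the 2 TNC probes stands apart.

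No fibrillar collagen with a value passed the test in t(1;14) against control. COL1A2, the alpha 2 chain of type I collagen, measured 7.71, 7.53 and 8.33 in control and 8.03, 8.60 and 8.28 in t(1;14), overlapping groups with a change of 0.45 (adjusted p = 0.15 in limma). COL5A2 differed by -0.03, and COL5A1 by -0.15. COL27A1 had the largest change of these collagens, 0.46 (adjusted p = 0.035 in limma), without overlap, and passed without oligospermic replicate 3 (adjusted p = 0.0089). Without control replicate 1 the COL5A1 change was -0.47 and passed (adjusted p = 0.00872). Among the other collagens COL21A1 fell: it measured 8.80, 8.45 and 8.49 in control and 7.27, 7.52 and 7.60 in t(1;14), a change of -1.11 (SE 0.17, adjusted p = 7.2e-04 in limma), and its 3 probes fell by 1.11 to 2.46. COL15A1, a collagen next to basement membranes, had a change of 1.57 with an adjusted p of 0.012 in limma, and all 8 probes of it were higher in t(1;14), by 1.40 to 2.17, with 4 of the 8 past the adjusted p. Its control arrays ranged from 6.50 to 8.36 and its t(1;14) arrays from 8.75 to 9.25. Without control replicate 3 the COL15A1 change was 2.02 (adjusted p = 0.00179). COL15A1 also passed with normexp (adjusted p = 0.00453), with the stricter filter (0.00993) and with a spread that follows intensity in limma (0.00647). COL7A1, the collagen of anchoring fibrils, had a change of -0.47 (adjusted p = 0.029 in limma), and passed with slide as a block (adjusted p = 0.00392).

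Of the 7 glycoproteins, 1 fell. THBS3, a thrombospondin, measured 11.08, 10.80 and 10.71 in control and 9.82, 9.79 and 9.73 in t(1;14), and both THBS3 probes fell, by 1.08 and 1.33 (adjusted p = 1.5e-04 for the chosen probe in limma). Fibronectin (FN1) had a change of 0.08 (adjusted p = 0.86) and SPARC, a collagen-binding protein, of 0.56 (adjusted p = 0.060). The 7 SPARC probes all lay between 0.01 and 0.61. The small proteoglycans that coat collagen fibrils, decorin (DCN) and lumican (LUM), had changes of 0.32 (adjusted p = 0.079) and 0.68 (adjusted p = 0.020). Lumican did not overlap between the groups, at 6.91 to 7.39 in control and 7.63 to 7.96 in t(1;14). Of 8 tested LUM probes 7 were higher in t(1;14), and 1 that was not the chosen probe passed the adjusted p.

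The 13 calls were read against the other probes of each gene. Of the 31 members with 2 or more tested probes, 16 had the same sign on all of them. Of the 13 called genes 3 have a single tested probe, 6 of the other 10 had the same sign on all probes, and ITGA2, ITGB4, LAMB1 and MMP11 did not. ITGB3 is among the 6, although the sign of its saturated probe carries no difference. Over 19 alternatives of processing or of the arrays used, 8 of the 13 passed the adjusted p each time: ITGAV, ITGB3, ITGB4, ITGAL, ADAMTS20, MMP19, COL21A1 and THBS3.

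**Figure D4:**
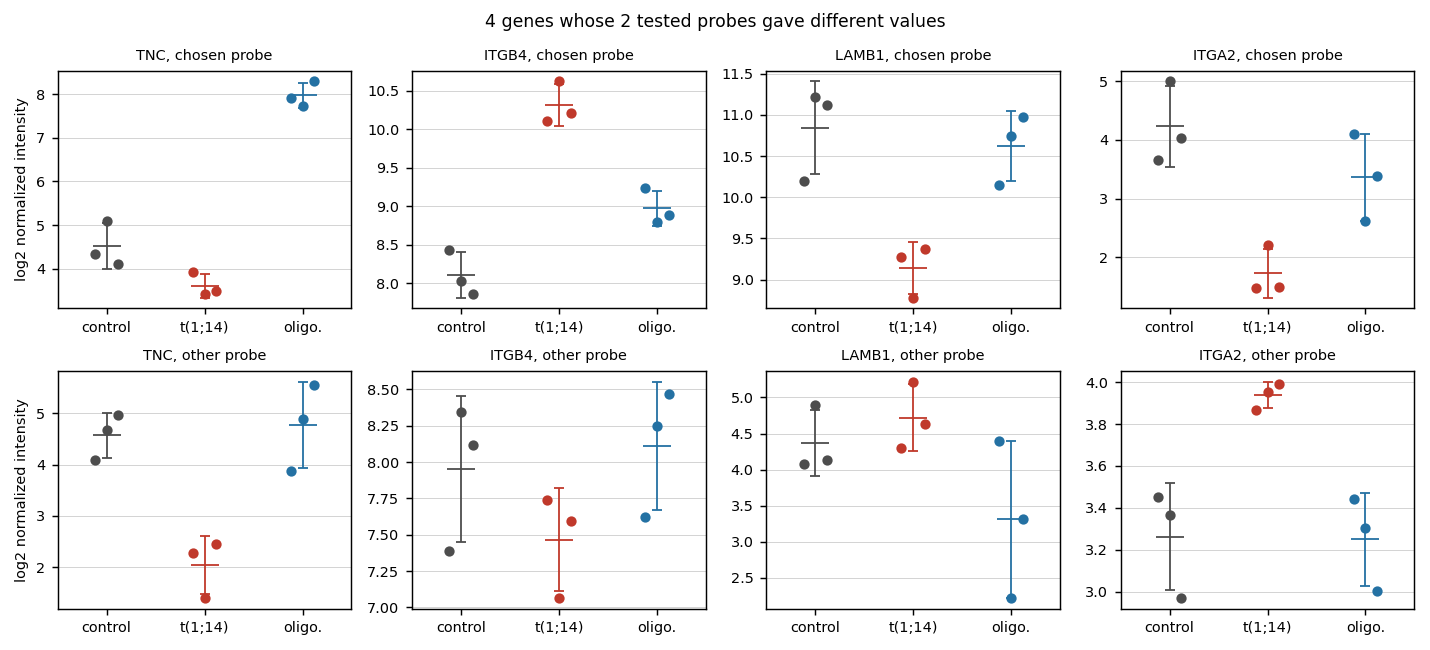
Log2 normalized intensity (y axis, a scale for each panel) on the 9 arrays for the chosen probe (top) and the other tested probe (bottom) of TNC, ITGB4, LAMB1 and ITGA2, with points for arrays and lines with bars for the mean and SD. In ITGB4, LAMB1 and ITGA2 the change of the chosen probe in t(1;14) is not seen at the other probe, and in TNC the high oligospermic level of 7.72 to 8.29 is seen at the chosen probe alone.

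Related genes outside the symbol rule were read from 5 lists, and 25 of the 49 list genes tested passed the adjusted p in t(1;14) against control, 51.0% against 38.5% of all probes. Both thresholds were passed by 3 of them, 6.12% against 5.82% of all probes, and of these SDC4 was well above background in both groups, while PLG and HPSE were below it on all t(1;14) arrays. Without PLG and HPSE, 23 list genes passed the adjusted p and 1 passed both thresholds. The genes named from these lists were chosen after their values were seen. Of 8 genes of collagen processing, 4 rose and 2 fell. PLOD2, a lysyl hydroxylase of collagen, rose by 1.68 (adjusted p = 1.0e-04 in limma), and of the prolyl hydroxylase chains P4HA1 rose by 0.78 while P4HA3 fell by 1.01 on the log2 scale. LOX, which cross-links collagen and elastin, measured 6.89, 7.31 and 6.72 in control and 4.83, 5.28 and 5.11 in t(1;14), a change of -1.90 (adjusted p = 5.3e-05). Of 14 plasminogen and protease genes, 5 rose and 3 were lower, PLG and HPSE with only a bound. The lysosomal cathepsins CTSB, CTSK, CTSL and CTSS all rose, by 0.82 to 1.47, while ADAM19 fell by 1.56 on the log2 scale. Plasminogen (PLG) and heparanase (HPSE) were at least 1.32-fold and 1.17-fold lower in t(1;14).

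Of 10 integrin adaptors and partners, 3 rose and 1 fell. LIMS1, vinculin (VCL) and talin 1 (TLN1), which connect integrins to actin, rose by 0.95, 0.77 and 0.76, and ACTN4, an actin cross-linker, fell by 0.91 on the log2 scale. Of 5 proteoglycans, the cell surface syndecan SDC2 rose by 1.85 (adjusted p = 5.7e-04) and SDC4 fell by 2.06 on the log2 scale (adjusted p = 1.6e-05 in limma). Of 12 elastic fiber and other glycoproteins, SPP1 (osteopontin, an integrin ligand) rose by 1.89 and MATN2 by 1.05, and FRAS1, EMILIN1 and CCN2 fell by 0.64 to 1.21. Periostin (POSTN) had a change of -1.82 with an adjusted p of 0.053, and its control arrays ran from 5.24 to 8.42.

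**Figure D5:**
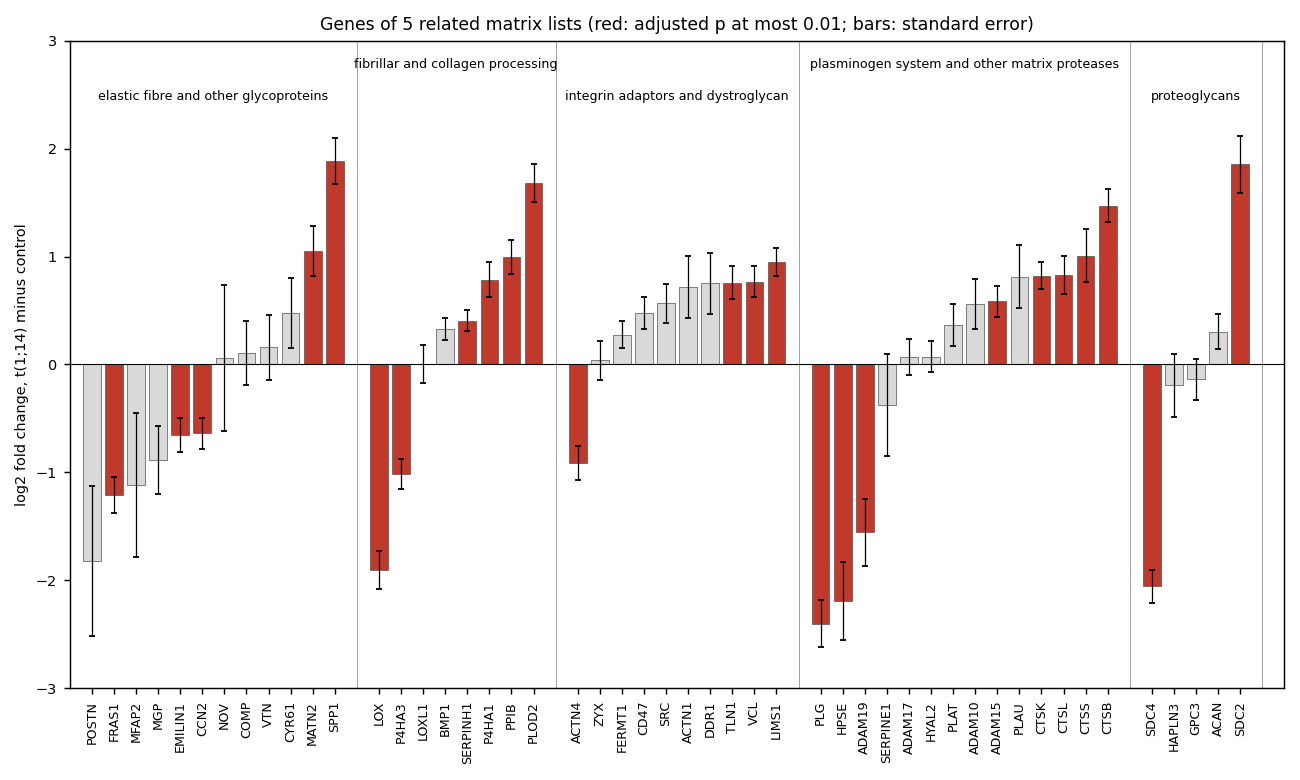
Log2 fold change of t(1;14) minus control (y axis) for the 49 tested genes of 5 related lists, with bars colored red where the adjusted p was at most 0.01 and error bars for the standard error. The 4 cathepsins and PLOD2, SDC2 and SPP1 lie above 0, and LOX, SDC4, PLG and HPSE lie lowest among those past the adjusted p.

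Markers of other cells moved in the same comparison. Biopsies hold whole tissue, in which fewer cells of a type and less RNA per cell cannot be told apart. Of 8 Leydig cell markers tested, 6 rose and none fell, and their mean level ran from 9.84 to 10.05 in control, 11.59 to 11.67 in t(1;14) and 9.93 to 10.26 in the oligospermic group. Of 6 spermatid markers, 5 fell and none rose, with mean levels of 13.65 to 13.81, 11.85 to 11.90 and 13.62 to 13.76 in the same order. The spermatid list holds probes saturated on some arrays (PRM2, the marker that did not pass, and TNP2), and over the other 4 markers the mean levels were 12.51 to 12.66, 10.16 to 10.23 and 12.49 to 12.67. Of the Leydig markers INSL3 was saturated on 2 t(1;14) arrays and 1 oligospermic array, and over the other 7 the mean levels were 8.99 to 9.24, 10.94 to 11.06 and 9.16 to 9.47. Endothelial markers rose in 2 of 7 genes, with mean levels of 5.53 to 6.80 in control and 6.92 to 7.37 in t(1;14), and immune markers in 1 of 2. Peritubular and smooth muscle markers fell in 1 of 6 genes (9.0 to 9.62 in control, 9.06 to 9.18 in t(1;14)). Of 7 fibroblast markers none rose or fell past the adjusted p in limma. An unadjusted p under 0.05 was found for 3 of the 7, and the share of all probes at that cutoff was not computed. Of 9 Sertoli markers 1 rose and 1 fell, of 4 spermatogonium markers 2 rose, and of 6 spermatocyte markers 2 rose and 2 fell. The part of these markers in the changes of the matrix genes was not tested.

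The second comparison asked how the oligospermic group, with a normal karyotype, differed from control, and tenascin C alone passed the test. TNC, a glycoprotein of remodeling matrix, measured 4.35, 5.10 and 4.11 on the control arrays and 7.90, 7.72 and 8.29 on the oligospermic arrays. Every oligospermic array was far above every control array, by 3.55, 2.62 and 4.18 on the single slides. The change was 3.45 (SE 0.27, adjusted p = 0.0013 in limma), and TNC passed both thresholds, 1 of 49 members (2.04%). Of all probes 0.224% passed the adjusted p (0.127% higher and 0.0973% lower), and 0.112% passed both thresholds (0.0657% higher and 0.0462% lower). The other TNC probe measured 4.09, 4.67 and 4.96 in control and 3.88, 4.88 and 5.56 in the oligospermic group, with overlap and a change of 0.20 (adjusted p = 0.92). With the mean of both probes the TNC change was 1.82 (adjusted p = 0.0346). The numbers of these arrays follow the slides, and with the replicate block TNC had an adjusted p of 0.0149, with the 6 arrays of the comparison alone 0.0127, and without oligospermic replicate 1 it was 0.0103. With slide as a block the adjusted p was just above 0.01, and the change stayed at 3.45 in the fits with a block.

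The other 48 members did not pass the test in the oligospermic group, with changes of -1.27 to 0.88. The median was 0.03, against 0.00 over all probes. Oligospermic and control values did not overlap in 10 of 49 members, 20.4% against 15.5% of all probes, with 3 members higher and 7 lower (7.87% and 7.66% of all probes). COL1A2 was lowest among these, at 6.89, 6.53 and 6.35 against 7.71, 7.53 and 8.33 in control, a change of -1.27 (adjusted p = 0.058), and both COL1A2 probes were lower (-1.27 and -0.96). COL6A3, a chain of the microfibrillar type VI collagen, had a change of 0.88 (adjusted p = 0.13), with all 5 tested probes higher by 0.31 to 0.88. ITGB4 had 0.87 (adjusted p = 0.10). In the 5 related lists none of 49 genes passed the adjusted p in limma, and 11 had an unadjusted p under 0.05. Of the 55 markers in 9 lists, 1 spermatocyte marker passed, lower, and 8 had an unadjusted p under 0.05. The share of all probes with an unadjusted p under 0.05 was not computed, so neither count can be called an excess.

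The third comparison set the t(1;14) boar against the oligospermic group and shares its arrays with the other comparisons. Of 49 members, 19 passed the adjusted p (8 higher and 11 lower in t(1;14)), 38.8% against 42.7% of all probes (22.8% higher and 19.9% lower). Both thresholds were passed by 2 members, both lower, 4.08% against 6.53% of all probes (1.84% higher and 4.69% lower). ITGB2 was well above background on no oligospermic array, and without it 18 members passed the adjusted p. TNC, past both thresholds, was well above background on 1 t(1;14) array and was kept by the filter through the other groups. The median was 0.08, against 0.13 over all probes, and the groups did not overlap in 33 members, 67.3% against 70.4% of all probes (40.2% higher and 30.1% lower).

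TNC was lowest in t(1;14), at 3.92, 3.41 and 3.5, where it was well above background on 1 array. The measured means of t(1;14) and the oligospermic group differed by -4.36 (SE 0.27, adjusted p = 8.2e-06 in limma), and by -2.08 with normexp background correction. With the filter applied in every group TNC was not tested here. At the other TNC probe, where no t(1;14) array was above background, t(1;14) was at least 2.25-fold lower than the oligospermic group (adjusted p = 0.0011) and at least 1.96-fold lower than control (adjusted p = 0.0018 in limma). Against control the chosen TNC probe had a change of -0.91 (adjusted p = 0.022), and the mean of both probes, which rests on these levels near background, passed the adjusted p (0.00181). ADAMTS20, at 7.60, 7.46 and 7.57 in the oligospermic group, was the other member past both thresholds, with -2.86 (SE 0.30, adjusted p = 1.1e-04 in limma).

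Because the same t(1;14) arrays enter both comparisons, the values of the genes described above are given here side by side and add no independent evidence. ITGAV measured 10.46, 10.34 and 9.76 there, and ITGB1 11.80, 11.73 and 11.11, and t(1;14) was higher by 1.92 and 0.97 (adjusted p = 1.2e-04 and 0.0031 in limma). ITGB3 measured 5.11, 5.44 and 5.32 in the oligospermic group, and t(1;14) was higher by 1.33. ITGB4 was higher in t(1;14) by 1.34 (adjusted p = 7.0e-04 in limma), a call lost with the mean of its probes (0.35). COL21A1, THBS3, LAMB1, MMP19, ITGAL and ADAMTS8 were lower in t(1;14) than in the oligospermic group by 0.61 to 1.48 on the log2 scale, and MMP11 was higher by 0.64. With 1 array left out, the THBS3 call was lost in 4 fits (adjusted p up to 0.0135), that of ADAMTS8 in 4 (up to 0.0137) and that of ITGB1 without t(1;14) replicate 1 (0.0103) or replicate 3 (0.0143). The LAMB1 call was lost with the mean of its probes (-0.04), and so was that of MMP11 (0.10). Of 19 alternatives the MMP11 call was lost in 8, and 5 of these left 1 array out (adjusted p up to 0.0219 in limma). ITGA2 did not pass here (-1.64 between the measured means, adjusted p = 0.013).

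The other members past the adjusted p in t(1;14) against the oligospermic group were COL1A2, ADAMTS1, ITGB2, COL6A3, COL7A1 and TIMP2, of which ITGB2, COL6A3 and COL7A1 were named after their values were seen. With slide as a block ITGB8 passed as well (-0.74, adjusted p = 0.00163). Of 19 alternatives, COL15A1 passed in 3, MMP2 in 2, and COL14A1, COL5A2 and ITGA2 in 1 each. COL1A2 was 1.72 higher in t(1;14) (SE 0.25, adjusted p = 5.2e-04 in limma), with 1.71, 1.76 and 1.68 on the slides. ADAMTS1 was 1.27 higher, and 0.41 to 1.61 higher over the alternatives of processing. ITGB2, the beta chain of leukocyte integrins, was not above background on any oligospermic array. It was at least 1.96-fold higher in t(1;14) (adjusted p = 0.0089 in limma). The ITGB2 call was lost with slide as a block (adjusted p = 0.0124) and with the replicate block (0.0116), and without any 1 of the t(1;14) or oligospermic arrays. COL6A3, COL7A1 and TIMP2 were lower in t(1;14), by 1.02, 0.75 and 0.65 on the log2 scale. Without any 1 t(1;14) array, or without oligospermic replicate 3, the count of members past the adjusted p fell to 11 or 12. In each of these fits, and without oligospermic replicate 2, the calls of ITGB2, COL6A3, LAMB1 and TIMP2 were lost. The COL7A1 call was lost in 4 fits with 1 array left out (adjusted p up to 0.015 in limma).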

How the data were processed

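Total RNA of testicular biopsies was hybridized to 9 single-color Agilent arrays (3 per group, 1 of each group on each of 3 slides). The intensity values, as deposited, are the processed Cy3 signals of Agilent Feature Extraction 11.5.1.1, per the file headers. The authors also deposited a table of normalized log2 values of 38759 probes, which chose 1 probe per gene and served as an alternative. Intensities were converted to log2 and quantile normalized over the 9 arrays. Probes well above background and without outlier flag on 2 of 3 arrays of at least 1 group were kept (41105 of 60889). The 3 groups were fitted together in limma 3.58.1 (R 4.3.3) with Benjamini-Hochberg adjustment over all kept probes. Threshold values were an adjusted p of 0.01 and, where both are named, an absolute log2 fold change of 2. The fit was tested on simulated arrays with independent noise, the same spread for every probe of a group and no effect of slide or boar. That run does not cover such effects.

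The members, the related lists and the marker lists were chosen with earlier results of these data known. The genes named by rule were those past both thresholds in any comparison, in each role group those with the largest rise and the largest fall past the adjusted p against control, and a list of main matrix genes (COL1A2, LAMB1, LAMC1, FN1, TNC, DCN, LUM, SPARC, TIMP1, TIMP2, TIMP-3, MMP2, MMP9, ADAMTS1, ITGB1, ITGA6 and ITGAV among them). All others were named after their values were seen. Where no array of a group was well above background, "at least" gives the fold against the lowest signal well above background. Replicate numbers are slide numbers for control and oligospermic arrays only. Deviations of same-numbered arrays correlated at 0.478, 0.136 and 0.101 there, so numbers pair these arrays, but at -0.285, -0.194 and 0.139 between control and t(1;14), and at -0.421, -0.335 and 0.121 between t(1;14) and oligospermic. Arrays of the same slide correlated at 0.339, 0.109 and 0.119 and at 0.489, 0.292 and 0.330 in these comparisons, so slide pairs the t(1;14) arrays with the others. Alternatives changed the background correction, scaling, filter, probe choice, blocks, arrays fitted and fold threshold. Gene symbols are those of the array files, so matrix genes under other names were left out of the 74. No genome positions of probes are given, and the build of the array design is not given in the sources used here.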

Additional observations from a re-analysis of the deposited data

How the results depend on the processing

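The count of members past the adjusted p in t(1;14) against control (13) was 11 to 15 over the alternatives of processing, and 10 to 15 when each array was left out in turn. In t(1;14) against the oligospermic group (19) it was 16 to 21 and, with an array left out, 11 to 21. The counts past both thresholds were small and moved more. In t(1;14) against control (3) the count was 0 with normexp background correction, 1 with the mean of all probes of a gene, 10 at a fold threshold of 1 on the log2 scale and 2 to 4 with an array left out. In t(1;14) against the oligospermic group (2) it was 1 with normexp, 1 with the filter applied in every group, 13 at the fold threshold of 1 and 2 to 3 with an array left out. In the oligospermic group against control, where TNC was the 1 call, 0 members passed the adjusted p or both thresholds with the 6 arrays alone, slide as a block, the replicate block or the mean of all probes, 0 passed both with normexp (a TNC change of 1.86), and the range with an array left out was 0 to 1. In t(1;14) against control and against the oligospermic group, the replicate block gave 11 and 17 members past the adjusted p. Slide as a block gave 15 and 19 of the 49 members, where 17779 and 19950 of all 41105 probes passed. The share of all probes under the other alternatives was not computed, so those member counts have no background beside them. Of 1242 values of the genes named by rule under an alternative, 1162 kept direction and side of the threshold, 43 lost the call, 9 gained it and 28 turned in direction. The 28 were past the adjusted p neither before nor after (lowest 0.417). In t(1;14) against control the mean of all probes turned MMP9 to 0.05 and TIMP1 to 0.08, and with an array left out FN1 ran from -0.30 to 0.35 and MMP9 from -0.15 to 0.10. In the oligospermic group against control ITGB1 turned to 0.01 with scaling to the percentile, with normexp and with the mean of all probes, SPARC to 0.01 with normexp and TIMP1 to -0.02 with the mean of all probes. With an array left out, COL21A1 there ran from -0.15 to 0.10, ITGAV from -0.31 to 0.05, ITGB1 from -0.14 to 0.20, LAMB1 from -0.54 to 0.01, SPARC from -0.27 to 0.11 and TIMP1 from -0.15 to 0.31, and MMP11 (up to 0.23) and MMP2 (down to -0.52) reached 0.00. In t(1;14) against the oligospermic group TIMP1 turned to 0.09 with the mean of all probes. In t(1;14) against control 8 of 13 calls passed throughout, and against the oligospermic group 8 of 19. Normexp shrank the changes of dim probes (in t(1;14) against control ADAMTS20 to -1.16 and ITGA2 to -0.35, and against the oligospermic group TNC from -4.36 to -2.08), and signal near background limits ITGA2, TNC in t(1;14) and ITGB2. The cause of the lost calls was not tested.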

Other observations

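Some matrix genes carry another identifier in the array files and were found by their description. They were 10 genes with 20 probes, of which 15 probes of 9 genes were tested. Of the 15, 5 passed the adjusted p in t(1;14) against control, those of ITGA6, LAMC1 and TN-X, which is 33.3% against 38.5% of all probes. The other 10 probes, of LAMB2, LAMC3, COL4A1, COL4A4, COL11A1 and a tenascin-like gene, had changes of -1.08 to 0.43. ITGA6, the alpha chain that pairs with ITGB4, measured 6.22, 6.16 and 6.75 in control and 7.38, 7.73 and 7.34 in t(1;14), a rise of 1.1 (adjusted p = 0.0025 in limma), with 6.97, 6.66 and 6.41 in the oligospermic group. The 3 probes described as laminin subunit gamma-1 (LAMC1) disagreed, with 1 higher in t(1;14) (0.83, adjusted p = 0.0095) and the others lower (-1.04 and -1.14, adjusted p = 0.0024 and 1.4e-04 in limma), the last of them well above background on 1 of the 3 t(1;14) arrays. Tenascin-X (TN-X) was lower in t(1;14) (-0.72, adjusted p = 0.0015 in limma).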
